A study of Mus musculus with 1376 samples.

Results

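The collagen genes were taken as every row of the count table whose Ensembl identifier maps to a mouse symbol made of Col, a number, the letter a and a number, which gave 44 genes of the 46517 in the table. They were sorted by the structure their proteins build: 11 fibrillar, 9 network-forming, 9 fibril-associated and 15 others, the last being beaded-filament, anchoring, transmembrane, multiplexin and remaining types. The genes lie on 15 chromosomes. The study profiled 1376 single cells of adult mouse lung by Smart-Seq2, a full-length RNA-seq protocol on cells sorted into 384-well plates, as part of an inventory of smooth muscle cells. All 3 mice were of the strain ACTA2GFP:CSPG4dsRED, whose name gives a GFP reporter for Acta2 (smooth muscle actin) and a dsRED reporter for Cspg4 (the pericyte proteoglycan NG2); male mouse 1 gave 47.5% of the cells from 2 plates, male mouse 2 gave 25.6% from 1 plate and female mouse 1 gave 26.96% from 1 plate. The labels name no treatment. The labels give an age of 8 to 30 weeks for the cells, while the series' design text gives 8 to 21 weeks and speaks of male mice, and the tissue label says lung while the dissociation text names kits for heart and skeletal muscle with added collagenase. With 1 female mouse on a plate of its own, sex, plate and animal cannot be told apart, and the sources used here do not give the sort gate.

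Collagens are proteins of 3 chains wound into a triple helix. Fibrillar collagens (types I, III and V) assemble into the cable-like fibres that carry tension in the lung's airways, vessels and alveolar walls, and fibril-associated types decorate those fibres. Type IV forms the sheet-like network of basement membranes, type VIII forms a hexagonal network around vessels, and type VI forms beaded filaments close to cells. The chains are hydroxylated and folded in the endoplasmic reticulum, cut by propeptidases after secretion and cross-linked outside the cell by lysyl oxidases. In the lung, fibroblasts are the best-known source of fibrillar collagen, while smooth muscle cells and pericytes lie on basement membranes.

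Because each sample is 1 cell, counts were summed per cell class and mouse and the mouse was the replicate. Classes came from clustering without any collagen, and 5 classes had at least 10 cells in every mouse. In the order male mouse 1, male mouse 2 and female mouse 1, which holds for every set of 3 values, vascular smooth muscle cell (SMC)-like cells made up 38.9%, 44.6% and 11.9% of the mouse's cells, and there were 41, 12 and 29 airway SMC-like cells, 20, 11 and 57 pericyte-like cells, 28, 41 and 35 alveolar myofibroblast-like cells and 45, 62 and 33 alveolar fibroblast-like cells. Cells held 50835 to 1074103 counts (median 230688), and the 15 sums held 2043384 to 75960509 counts. The classes were named from marker lists that hold no collagen, so the levels of these lists are no independent check. By class mean, the summed airway SMC, pericyte, alveolar myofibroblast and alveolar fibroblast markers were each highest in their own class. The airway SMC list averaged 7769 CPM (counts per 1000000) in airway SMC-like and 6971 CPM in alveolar myofibroblast-like cells. In female mouse 1 that list stood at 6974 and 7050 CPM in these 2 classes. The vascular SMC list averaged 3910.2 CPM in vascular SMC-like and 4356 CPM in pericyte-like cells. The endothelial, macrophage and epithelial lists summed to at most 168.8 CPM in any of the 15 sums. Female mouse 1 stood apart in a median mitochondrial share of 0.571% of counts against 1.68% and 1.97% in the male mice. A further 25.9% of the cells lay in 3 unnamed clusters, and adventitial fibroblast-like, endothelial-like and macrophage-like cells were too few per mouse for the fit.

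By mean among the 5 fitted classes, collagens took the smallest share of all counts in vascular SMC-like cells and the largest in alveolar fibroblast-like cells. The share was 0.427%, 0.541% and 1.18% in vascular SMC-like cells, 0.638%, 0.456% and 1.82% in airway SMC-like cells and 0.881%, 1.15% and 1.92% in pericyte-like cells. It reached 1.12%, 1.53% and 2.67% in alveolar myofibroblast-like and 1.88%, 1.80% and 3.24% in alveolar fibroblast-like cells, so the class means ran from 0.715% ± 0.406 to 2.31% ± 0.810 (SD, n = 3 mice) while the ranges of neighbouring classes overlapped. By class mean, fibrillar genes made up the largest part in all 5 classes, from 0.331% of all counts in vascular SMC-like to 1.37% in alveolar fibroblast-like cells. Network collagens took their largest share in pericyte-like cells, 0.205%, 0.421% and 0.603%, and 0.0428%, 0.0574% and 0.129% in alveolar myofibroblast-like cells. For comparison, all collagens together took 0.0207% in the 60 macrophage-like cells of male mouse 1 and 0.197% in the 65 endothelial-like cells of female mouse 1, of which 0.158% was network collagen. Pooled over mice, they took 3.24% in the 17 adventitial fibroblast-like cells and 2.23% in the 76 cells of unnamed cluster 8. The pooled share in alveolar fibroblast-like cells was 2.21%.

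**Figure D1:**
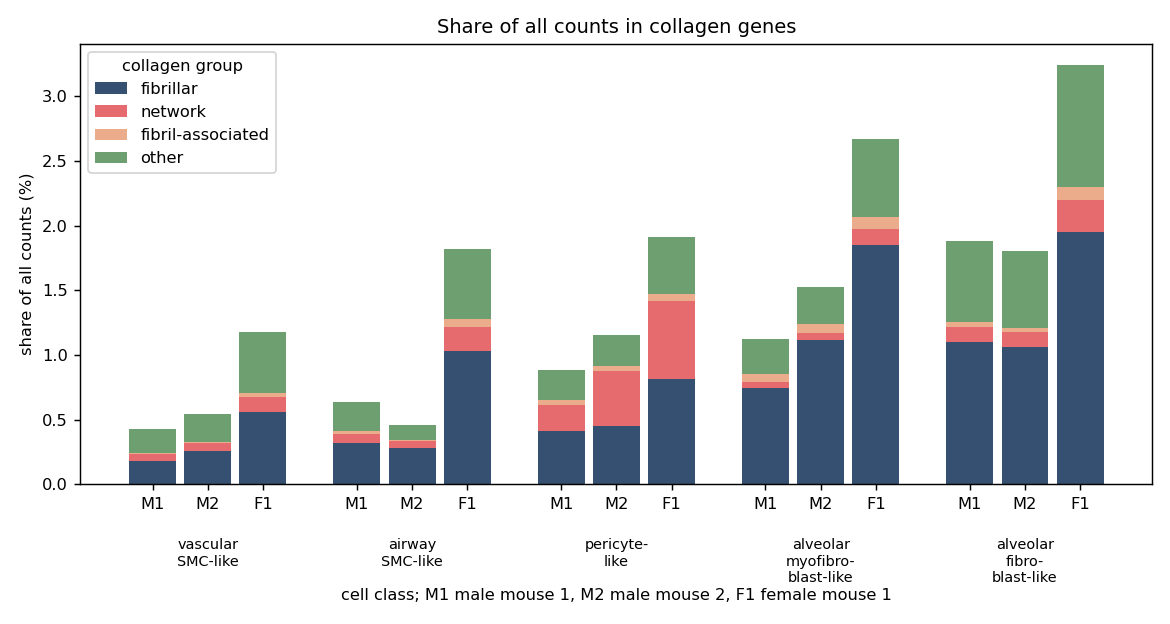
Share of all counts in collagen genes (%, bars from 0) for each class and mouse, stacked by collagen group. The alveolar fibroblast-like bars stand at 1.88%, 1.80% and 3.24%, and in each class the bar of female mouse 1 is the highest.

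Of the 44 collagens, 33 passed the filter on low counts and were tested with edgeR, together with all other genes (15992 in all). A member could pass through 1 class alone, so a count over the tested members does not describe all 44. A difference among the 5 classes was called (adjusted p under 0.05) for 18 of the 33, where 11.6% of all tested genes were called. These were 4 of 8 tested fibrillar, 4 of 8 network, 1 of 5 fibril-associated and 9 of 12 other collagens, led by Col3a1 (adjusted p = 1.17e-05), Col4a1 (adjusted p = 4.08e-05) and Col28a1 (adjusted p = 9.01e-05). Without female mouse 1 or without male mouse 1 the count was 10, with 3.81% and 3.93% of all genes called. Without male mouse 2 it was 13, with 4.82% of all genes called. Among the 27 members with a mean of at least 20 CPM in some class, the highest mean lay in alveolar fibroblast-like cells for 15, pericyte-like cells for 4, vascular SMC-like cells for 3, alveolar myofibroblast-like cells for 3 and airway SMC-like cells for 2. When the 5 classes were ordered by level, the ranges over mice stayed apart in 14 pairs of neighbouring classes, of 4 pairs for each of the 27 members, which is 12.96% of these pairs against 8.41% over all genes of that level. Some of the 14 lay near 0. Vascular SMC-like means stood at 0.0467 CPM for Col17a1 against 0 in airway SMC-like cells. For Col23a1 they stood at 1.498 CPM against 0.414 in alveolar myofibroblast-like cells.

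**Figure D2:**
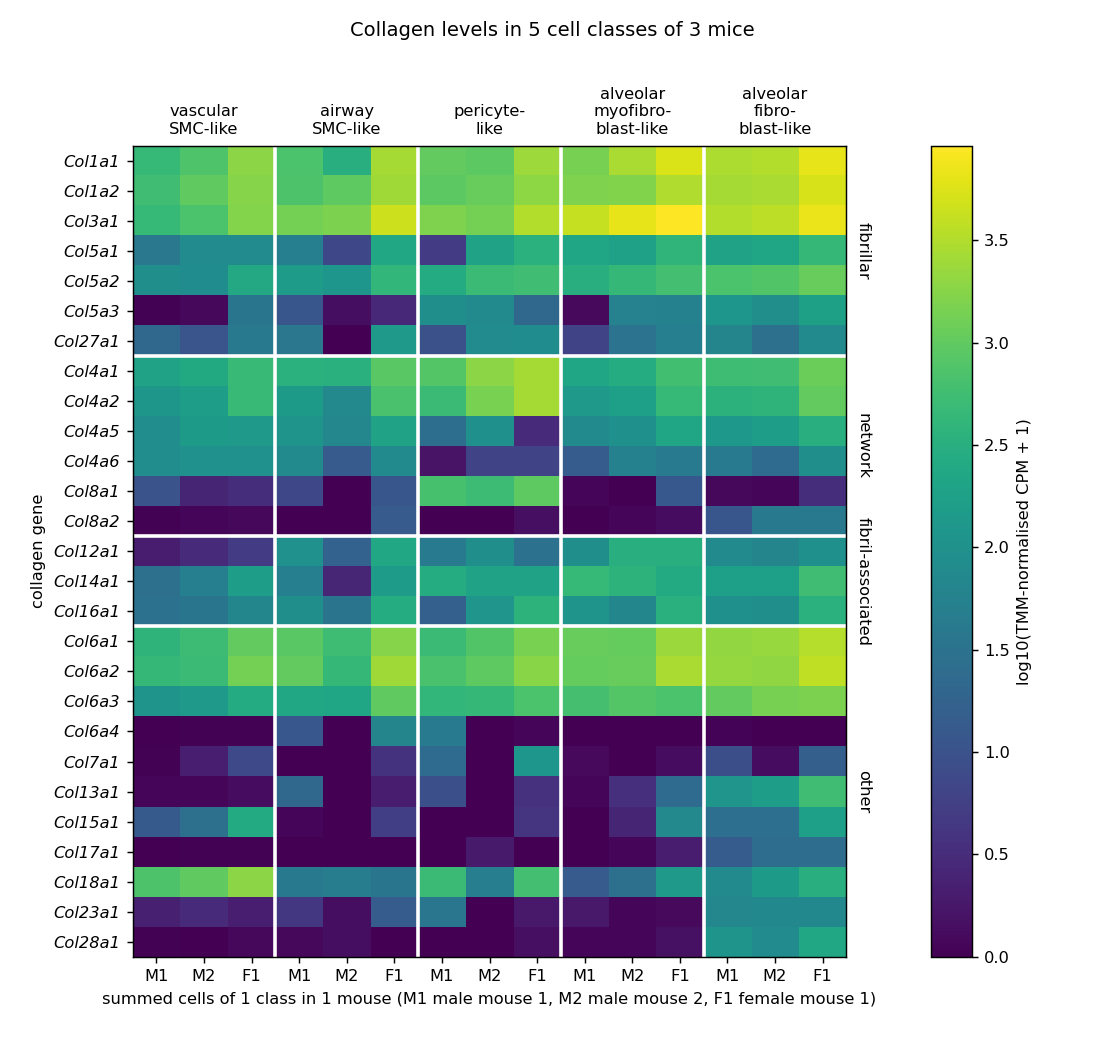
Levels of the 27 collagens with at least 20 CPM in some class, as log10 of TMM-normalised CPM plus 1 (colour), for 5 classes (columns between white lines) of 3 mice. Col8a1 is bright only in the 3 pericyte-like columns (514.6 to 947 CPM) and Col28a1 only in the 3 alveolar fibroblast-like columns (81.3 to 226.2 CPM).

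Among the fibrillar genes, the chains of types I and III were present in all 5 classes and led by the alveolar classes. Col1a1 (chr11:94936224-94953042, GRCm38), the alpha 1 chain of type I, stood at 455.4, 749 and 1849 CPM in vascular SMC-like, 699, 317.5 and 2669 CPM in airway SMC-like, 1014, 930.2 and 2439 CPM in pericyte-like, 1417, 2918 and 5382 CPM in alveolar myofibroblast-like and 2966, 3209.9 and 6574 CPM in alveolar fibroblast-like cells. Every alveolar fibroblast-like value lay above every vascular SMC-like value, but each class overlapped its neighbour in the order. Its partner Col1a2 ran in the same order at the ends, from 555.9, 995 and 1759 CPM in vascular SMC-like to 2724, 2867 and 5232 CPM in alveolar fibroblast-like cells. Col3a1 (chr1:45311538-45349706), the only chain of type III and abundant in distensible tissue, was the only one of these with its highest mean in alveolar myofibroblast-like cells, at 4129, 6458 and 9174 CPM. It stood at 450.2, 699.7 and 1680.2 CPM in vascular SMC-like, 1379.5, 1536 and 4501 CPM in airway SMC-like, 1589, 1352 and 3166 CPM in pericyte-like and 3236, 3738 and 7133 CPM in alveolar fibroblast-like cells. In all 5 classes female mouse 1 was the highest of the 3 for these genes.

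The promoter windows of Col1a2 and Col3a1 (RefSeq, GRCm38.p6, 250 bases before to 50 after the transcript start, 5′ to 3′) are shown because both genes were called in several comparisons while their windows hold different motif letters. Capitals mark CCAAT boxes (CCAAT, either strand) and GC boxes (GGGCGG, either strand) in the Col1a2 window, chr6:4505368-4505667 on the plus strand, and a TATA box (TATAAA, either strand) in the Col3a1 window, chr1:45311288-45311587 on the plus strand.
Col1a2: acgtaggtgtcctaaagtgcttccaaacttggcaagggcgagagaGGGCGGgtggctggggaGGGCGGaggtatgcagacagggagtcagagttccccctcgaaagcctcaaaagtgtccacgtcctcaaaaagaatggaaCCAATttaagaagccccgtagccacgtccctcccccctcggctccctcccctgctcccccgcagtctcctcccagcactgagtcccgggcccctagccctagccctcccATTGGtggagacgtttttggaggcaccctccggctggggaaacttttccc
Col3a1: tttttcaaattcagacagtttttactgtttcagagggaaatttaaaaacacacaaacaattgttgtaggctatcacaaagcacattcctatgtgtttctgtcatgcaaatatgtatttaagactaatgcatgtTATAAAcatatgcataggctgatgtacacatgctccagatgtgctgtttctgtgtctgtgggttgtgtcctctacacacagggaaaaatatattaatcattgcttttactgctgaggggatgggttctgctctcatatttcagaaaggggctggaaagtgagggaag
RefSeq windows were found for 35 of the 44 members (38 windows) and for 32851 windows in all. TATAAA occurred in 13.2% of the collagen windows and 13.6% of all windows, CCAAT in 34.2% and 37.4%, and GGGCGG in 60.5% and 35.7%. These are matches of letters only, and no binding was measured.

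The minor fibrillar chains were lower and more uneven. Col5a2, a type V chain that sits in the core of type I fibres, stood at 92.4, 84.6 and 246.8 CPM in vascular SMC-like, 274.2, 509.6 and 559.6 CPM in pericyte-like and 701, 774 and 1087 CPM in alveolar fibroblast-like cells. Its lowest alveolar fibroblast-like value was above every value of the other 4 classes. Col5a1, the main type V chain, stood at 37.6, 81.1 and 80.6 CPM in vascular SMC-like and 188.4, 220.6 and 437.5 CPM in alveolar fibroblast-like cells. In pericyte-like cells its values of 3.997, 192.99 and 334.1 CPM spanned more than the difference between classes, and its exons overlap those of 2810430I11Rik and Gm13372 on the other strand. Col5a3, the third type V chain, was at 120.7, 90.2 and 177.8 CPM in alveolar fibroblast-like cells and at 0.0474, 0.217 and 34.1 CPM in vascular SMC-like cells. Col27a1, a fibrillar collagen best known in cartilage, had means of 56.9, 56.9 and 56.1 CPM in airway SMC-like, pericyte-like and alveolar fibroblast-like cells, and its airway values were 36.7, 0 and 133.97 CPM, so its classes could not be ordered. Col24a1 was tested but below 20 CPM in all 5 classes, and the cartilage chains Col2a1, Col11a1 and Col11a2 were not tested and were found in 10, 7 and 2 cells.

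**Figure D3:**
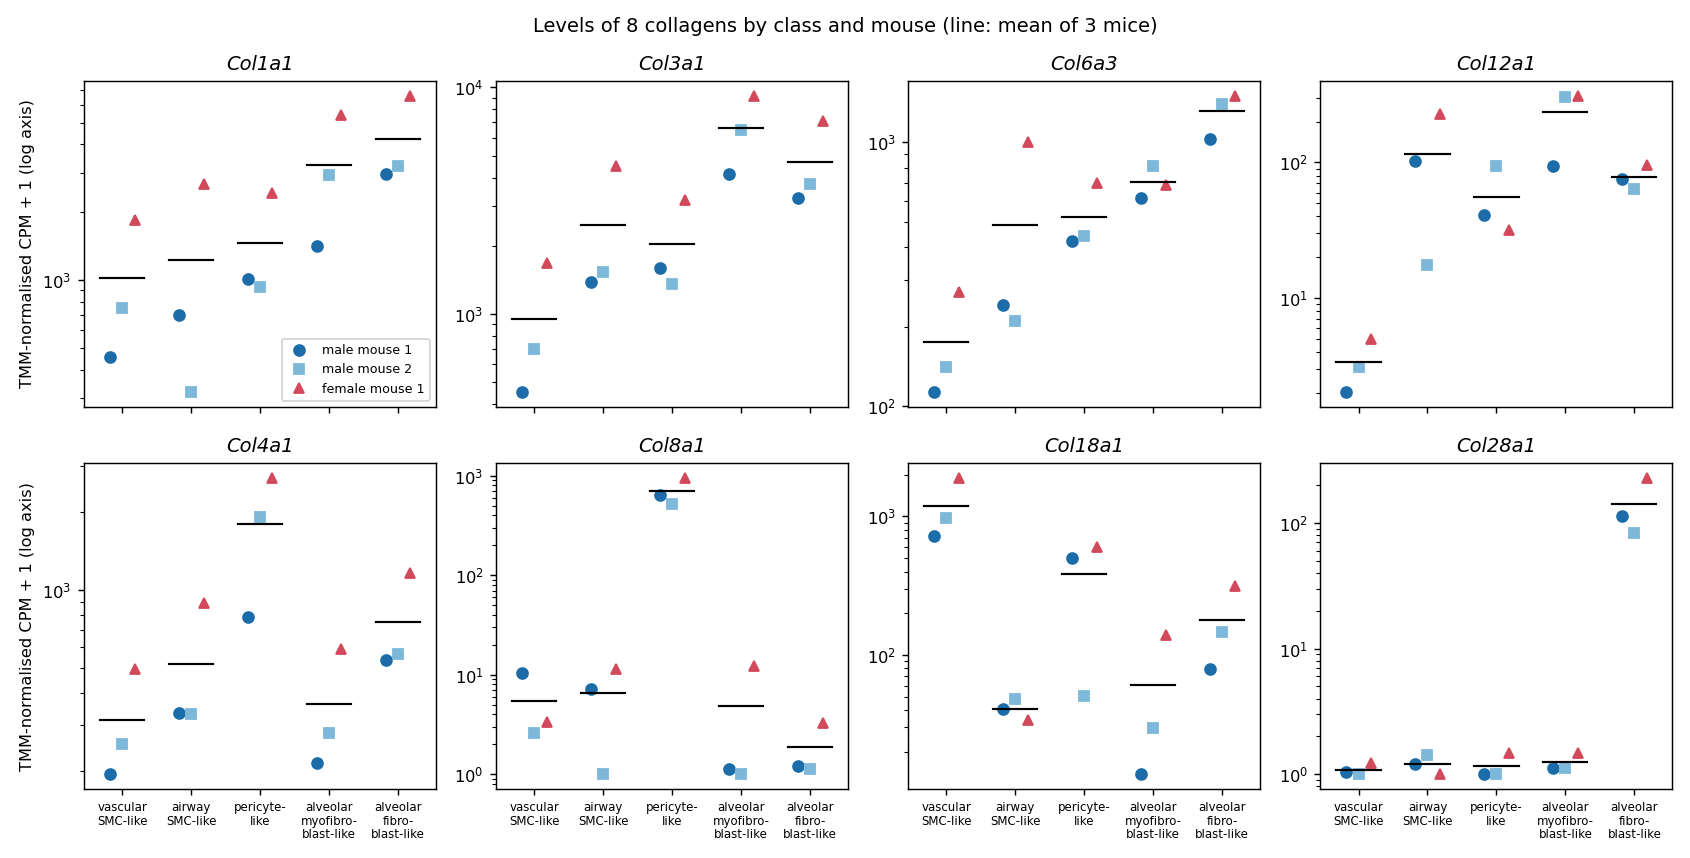
TMM-normalised CPM plus 1 (log axis) of 8 collagens in 5 cell classes, with 1 point per mouse and a line at the mean of 3 mice. Col1a1 and Col3a1 vary by less between classes than Col8a1, Col12a1 and Col28a1, and female mouse 1 is the highest point in most panels.

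Ratios between chains were compared per kilobase of the transcript with the longest coding sequence. The Col3a1:Col1a1 ratio was 1.05, 0.995 and 0.968 in vascular SMC-like and 1.16, 1.24 and 1.16 in alveolar fibroblast-like cells, each within a narrow range although the levels of the 2 classes differed. In the remaining classes it was higher: 1.67, 1.55 and 1.38 in pericyte-like, 3.11, 2.36 and 1.82 in alveolar myofibroblast-like and 2.10, 5.16 and 1.80 in airway SMC-like cells, with no overlap with either of the first 2 classes. With all exon bases as the length, the means were 0.631 in vascular SMC-like and 1.52 in alveolar myofibroblast-like cells, so the absolute ratio depends on the length used. A change of length scales all classes by the same factor, so it cannot change their order. The Col1a1:Col1a2 ratio averaged 0.789 ± 0.141 in vascular SMC-like, 1.04 ± 0.0806 in alveolar fibroblast-like and 1.34 ± 0.462 in alveolar myofibroblast-like cells (SD, n = 3 mice). The 3 vascular values (0.739, 0.679 and 0.948) lay below the 3 alveolar fibroblast-like ones (0.982, 1.01 and 1.13), and the alveolar myofibroblast-like range overlapped both. On all exon bases these means were 1.66, 2.19 and 2.82. For type VI, whose 3 main chains assemble together, Col6a1:Col6a2 averaged between 0.754 and 0.95 in the 5 classes. Col6a3:Col6a1 was 0.122, 0.108 and 0.108 in vascular SMC-like cells and 0.341, 0.233 and 0.197 in pericyte-like cells, without overlap. These ratios carried no test.

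**Figure D4:**
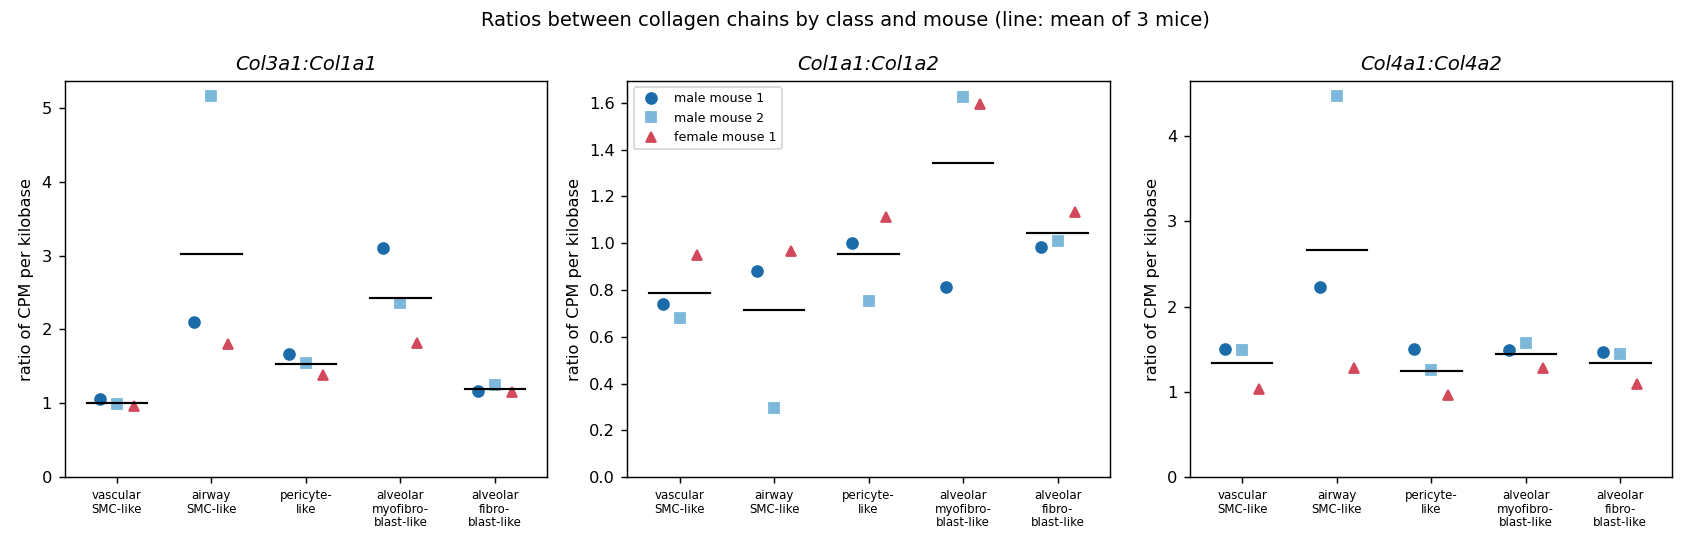
Ratios of CPM per kilobase between chains, by class, with 1 point per mouse and a line at the mean of 3 mice. The Col3a1:Col1a1 points lie at 0.968 to 1.05 in vascular SMC-like and 1.16 to 1.24 in alveolar fibroblast-like cells, and between 1.38 and 5.16 in the other classes.

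The network collagens were led by Col4a1 (chr8:11198423-11312826, minus strand) and Col4a2 (chr8:11312805-11449287, plus strand), the pair of chains found in nearly every basement membrane. The genes lie head to head, with transcript starts 21 bases apart. Their promoter windows (RefSeq, GRCm38.p6, 5′ to 3′ for each gene) are shown because the pair was high in the same class; they are chr8:11312777-11313076 on the minus strand and chr8:11312555-11312854 on the plus strand, and capitals mark the 78 bases that both windows hold.
Col4a1: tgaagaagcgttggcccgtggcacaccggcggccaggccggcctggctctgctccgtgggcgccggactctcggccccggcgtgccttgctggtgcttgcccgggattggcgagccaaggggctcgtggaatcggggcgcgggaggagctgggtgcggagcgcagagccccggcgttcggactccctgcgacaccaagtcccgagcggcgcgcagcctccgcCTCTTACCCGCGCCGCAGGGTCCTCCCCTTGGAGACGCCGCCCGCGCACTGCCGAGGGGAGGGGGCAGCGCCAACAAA
Col4a2: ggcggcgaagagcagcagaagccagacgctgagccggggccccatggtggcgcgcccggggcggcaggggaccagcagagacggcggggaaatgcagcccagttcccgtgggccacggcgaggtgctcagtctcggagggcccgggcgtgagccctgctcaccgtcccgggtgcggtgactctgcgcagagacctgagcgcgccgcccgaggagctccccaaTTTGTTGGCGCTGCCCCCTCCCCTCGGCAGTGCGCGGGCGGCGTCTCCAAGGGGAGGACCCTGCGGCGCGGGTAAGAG
Col4a1 stood at 785, 1901 and 2692 CPM in pericyte-like cells, above all values of the vascular SMC-like class at 193.4, 254.1 and 492.2 CPM. It stood at 332.7, 330.6 and 885 CPM in airway SMC-like, 213.8, 279.4 and 588.5 CPM in alveolar myofibroblast-like and 532.8, 562.3 and 1160.3 CPM in alveolar fibroblast-like cells. Col4a2 followed the same order at the top, with 509.6, 1472 and 2716 CPM in pericyte-like, 352.7, 378.98 and 1038 CPM in alveolar fibroblast-like and 125.8, 166.1 and 462.5 CPM in vascular SMC-like cells. The first exons of the pair overlap on opposite strands, and Col4a2 also overlaps Gm15419, so reads there cannot be told apart without strand. Per kilobase, Col4a1:Col4a2 averaged 1.24 ± 0.268 in pericyte-like and 1.34 ± 0.264 in vascular SMC-like cells (SD, n = 3 mice), so the ratio overlapped where the level did not. The ratio averaged 1.34 in alveolar fibroblast-like and 1.45 in alveolar myofibroblast-like cells. In airway SMC-like cells it was less even, at 2.23, 4.47 and 1.28. Pooled over the endothelial-like cells, which sit on the same basement membranes, Col4a1 stood at 899.8 and Col4a2 at 620.7 CPM without TMM scaling.

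The remaining network chains had other patterns. Col4a5 and Col4a6, a neighbouring pair on the X chromosome found in smooth muscle basement membranes, were lowest in pericyte-like cells. Col4a6 stood at 86.98, 99.1 and 101.02 CPM in vascular SMC-like, 74.3, 12.6 and 74.5 CPM in airway SMC-like and 0.615, 5.55 and 5.43 CPM in pericyte-like cells. Col4a5 stood at 87.3, 141.3 and 136.3 CPM in vascular SMC-like, 26.3, 96.7 and 1.97 CPM in pericyte-like and 129.9, 159.9 and 304.8 CPM in alveolar fibroblast-like cells. Col8a1 (chr16:57624258-57754737), a short-chain collagen of vessel walls, stood at 636.3, 514.6 and 947 CPM in pericyte-like cells and at 9.46, 1.60 and 2.34 CPM in vascular SMC-like, 6.24, 0 and 10.3 CPM in airway SMC-like, 0.126, 0 and 11.3 CPM in alveolar myofibroblast-like and 0.21, 0.122 and 2.26 CPM in alveolar fibroblast-like cells. Each cell was then thinned to 50000 counts, which left out no cell, and the cells of a class were pooled over mice. Col8a1 was found in 69.3% of 88 pericyte-like cells (20, 11 and 57 per mouse), with an exact 95% interval of 58.6% to 78.7%. Before thinning the share was 76.1%. After thinning it was found in 3.74% of vascular SMC-like cells and none of 67 macrophage-like cells (exact 95% interval up to 5.36%). These intervals treat cells as independent and leave out the spread between mice. Before thinning, 5.97% of the macrophage-like cells had a Col8a1 count. Its partner chain Col8a2 was instead highest in alveolar fibroblast-like cells, at 10.4, 38.7 and 39.02 CPM, and at 0, 0 and 0.468 CPM in pericyte-like cells. Col4a3 and Col4a4, chains of specialised basement membranes, were tested but stayed below 20 CPM, and the cartilage gene Col10a1 was not tested.

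Of the fibril-associated genes, 3 reached 20 CPM. Col12a1, which bridges type I fibres, was nearly absent from vascular SMC-like cells at 1.02, 2.08 and 4.02 CPM. It stood at 101.4, 16.4 and 224.9 CPM in airway SMC-like, 39.97, 92.6 and 30.5 CPM in pericyte-like, 93.9, 301.9 and 309.01 CPM in alveolar myofibroblast-like and 74.2, 62.4 and 95.3 CPM in alveolar fibroblast-like cells, and all 12 of these values lay above all 3 vascular ones. Col14a1, which binds the fibre surface, stood at 49.5, 1.69 and 148.3 CPM in airway SMC-like, where its mean was lowest, at 27.7, 51.1 and 163.9 CPM in vascular SMC-like and at 455.2, 361.8 and 267.4 CPM in alveolar myofibroblast-like cells, where female mouse 1 was the lowest. Col16a1 stood at 30.6, 33.4 and 64.9 CPM in vascular SMC-like and 95.6, 91.7 and 337.3 CPM in alveolar fibroblast-like cells, and its pericyte-like values of 15.5, 114.3 and 360.8 CPM went past the range of the other classes at both ends. Col20a1 and Col22a1 were tested below 20 CPM, and Col9a1, Col9a2, Col9a3 and Col19a1 were not tested.

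Type VI chains, the beaded filaments that link cells to the matrix, were found in all classes. Col6a1 ran over the class means from 640.05 CPM in vascular SMC-like (372.9, 524.1 and 1023 CPM) to 2553 CPM in alveolar fibroblast-like cells (2080.4, 2253 and 3325 CPM). Col6a2 ran from 438.7, 505.1 and 1354 CPM to 2168, 1986 and 3852 CPM in the same classes. Col6a3, the largest of the 3 chains, stood at 112.2, 140.1 and 271.2 CPM in vascular SMC-like, 240.7, 209.6 and 999.7 CPM in airway SMC-like, 421.4, 441.99 and 703 CPM in pericyte-like, 615.2, 810.2 and 691 CPM in alveolar myofibroblast-like and 1030, 1401 and 1499 CPM in alveolar fibroblast-like cells. The lowest alveolar fibroblast-like value was just above the highest airway value. Col6a4 reached 20 CPM only through airway SMC-like cells (10.99, 0 and 62.5 CPM), where 55.8% of its counts came from 1 cell, and in pericyte-like cells 99.3% came from 1 cell. Col6a5 was not tested and Col6a6 stayed below 20 CPM.

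The multiplexins, basement membrane collagens that carry endostatin-like ends, were led by Col18a1 in vascular SMC-like cells. Col18a1 (chr10:77052178-77166548) stood at 720.3, 978 and 1895 CPM there, 39.5, 46.8 and 33.1 CPM in airway SMC-like, 12.7, 28.5 and 137.1 CPM in alveolar myofibroblast-like, 77.5, 145.7 and 312.97 CPM in alveolar fibroblast-like and 502.7, 49.1 and 602.7 CPM in pericyte-like cells. After thinning it was found in 92.3% of the vascular class, pooled over mice. The exact 95% interval of 89.5% to 94.6% leaves out the spread between mice, and the share before thinning was 98.2%. Airway SMC-like and macrophage-like cells stood at 32.9% and 16.4% after thinning. Col15a1 stood at 12.3, 28.3 and 267.1 CPM in vascular SMC-like and 26.8, 27.3 and 173.04 CPM in alveolar fibroblast-like cells, and at 0.142, 0 and 4.51 CPM in airway SMC-like and 0, 0 and 2.90 CPM in pericyte-like cells. Female mouse 1 held the highest Col15a1 value in all 5 classes, and Col15a1 exons overlap Gm12426 on the other strand.

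Col13a1, Col17a1, Col23a1 and Col28a1 were highest in alveolar fibroblast-like cells. Col13a1, a membrane collagen of cell adhesion sites, stood at 115.5, 162.9 and 549.02 CPM there and at 0.119, 0.13 and 0.365 CPM in vascular SMC-like cells. Col17a1, known from the hemidesmosomes of epithelia, stood at 13.4, 25.4 and 25.4 CPM in alveolar fibroblast-like cells, while the vascular class held 4 counts in all. Col23a1 stood at 67.7, 70.2 and 70.6 CPM in alveolar fibroblast-like cells and at no more than 34.7 CPM in any other sum. Outside the fit, Col23a1 and Col17a1 were higher in unnamed cluster 8 when cells were pooled over mice. Without TMM scaling they stood at 222.4 and 58.2 CPM there, against 70.05 and 20.7 CPM in alveolar fibroblast-like cells. Col28a1 (chr6:7997808-8192617), a von Willebrand factor domain collagen, stood at 112.2, 81.3 and 226.2 CPM in alveolar fibroblast-like cells and below 0.5 CPM in each of the other 12 sums. After thinning, a Col28a1 count was found in 39.3% of the 140 cells of that class, pooled over mice. The exact 95% interval of 31.1% to 47.9% leaves out the spread between mice, and the share before thinning was 44.3%. Airway SMC-like and macrophage-like cells stood at 2.44% and 1.49% after thinning. Col7a1, the anchoring fibril chain of epithelial borders, reached 20 CPM only in pericyte-like cells (23.4, 0 and 118.3 CPM), where 18 of 88 cells held a count. Col25a1 and Col26a1 were not tested.

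Vascular SMC-like against airway SMC-like cells asked how collagens differ between 2 classes of smooth muscle named from markers. In airway SMC-like cells 2 of the 33 tested members passed the test upwards and 2 downwards, against 1.04% and 0.869% of all genes tested (1.91% together). Col12a1 and Col3a1 rose and the basement membrane genes Col15a1 and Col18a1 fell. Col18a1 changed by -4.64 ± 0.83 (SE), adjusted p = 0.0112 (here and below, edgeR's log2 fold changes over 3 mice with their SE), and was lower in 3 of 3 mice. Col15a1 changed by -6.75 ± 1.39 (SE), adjusted p = 0.0256, on 40 counts in airway SMC-like cells. Col12a1 changed by 5.65 ± 0.91 (SE), adjusted p = 0.00574, and Col3a1 by 1.39 ± 0.20 (SE), adjusted p = 0.00283, each higher in 3 of 3 mice. The most abundant members that were not called were Col1a2 (0.28 ± 0.18, adjusted p = 0.731), Col6a2 (0.71 ± 0.28, adjusted p = 0.348), Col1a1 (0.10 ± 0.35, adjusted p = 0.996) and Col6a1 (0.72 ± 0.23, adjusted p = 0.196). The median log2 fold change of the tested members was 0.28, and that of all genes tested -0.17. Without female mouse 1 or without male mouse 1 no member was called, of 49 and 74 genes called in all, and without male mouse 2, of which the airway class holds 12 cells, Col3a1 and Col12a1 were called. Cardiomyocyte markers, fixed because the protocol text names heart, summed to 304.9, 906 and 64.4 CPM in airway and 64.5, 47.9 and 51.1 CPM in vascular SMC-like cells, with Myh6 and Nppa at 0 in the airway class; their part in the result was not tested.

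Pericyte-like against vascular SMC-like cells compared 2 classes of mural cells named from markers, and the size of their vessels was not measured. Pericyte-like cells had 7 members higher and 2 lower of 33 tested, against 1.93% and 2.3% of all genes (4.23% together). The vessel-wall and basement membrane chains Col8a1, Col4a2 and Col4a1 rose together with Col12a1, Col5a2, Col6a3 and Col3a1, and Col15a1 and Col4a6 fell. Col8a1 changed by 7.41 ± 1.46 (SE), adjusted p = 0.0115, with no overlap between the classes. Col4a1 changed by 2.50 ± 0.24 (SE), adjusted p = 0.000133, and Col4a2 by 2.66 ± 0.40 (SE), adjusted p = 0.00252. Of the fibre-building chains, Col3a1 changed by 1.23 ± 0.20 (adjusted p = 0.0046) and Col5a2 by 1.79 ± 0.32 (adjusted p = 0.00671). Col6a3 changed by 1.65 ± 0.37 (adjusted p = 0.0257) and Col12a1 by 4.75 ± 0.87 (adjusted p = 0.00782). The pericyte-like class joins clusters 11 and 12. In each mouse Col6a3 lay above the vascular SMC-like value in cluster 11 and below it in cluster 12, as given further down. The Col6a3 call was lost at Leiden resolution 2. Col15a1 changed by -7.71 ± 1.5035 (SE), adjusted p = 0.0111, and Col4a6 by -4.84 ± 1.01 (SE), adjusted p = 0.0158. Type I was not called: Col1a1 differed by 0.62 ± 0.35 (adjusted p = 0.41) and Col1a2 by 0.34 ± 0.18 (adjusted p = 0.395). Col6a2 (0.67 ± 0.28, adjusted p = 0.236) and Col18a1 (-1.64 ± 0.75, adjusted p = 0.283) were not called either. The members' median was 1.32 and that of all genes -0.28. The count was 5 without female mouse 1, 2 without male mouse 1 (Col4a1 and Col4a2) and 5 without male mouse 2, of which the pericyte class holds 11 cells. In this order, 1.33%, 0.919% and 1.34% of all genes were called. Col4a1 was the only member called in all 3 of these fits, and Col15a1 was lost in each. Endothelial markers summed to 168.8, 142.6 and 75.01 CPM in pericyte-like and 66.5, 143.7 and 67.6 CPM in vascular SMC-like cells, and epithelial markers to 113.3, 136.1 and 103.8 CPM in the former and 66.01, 13.8 and 52.4 CPM in the latter; their part in the result was not tested.

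Alveolar fibroblast-like against vascular SMC-like cells gave the most calls, with 13 members higher and 1 lower of 33 tested, against 3.36% and 2.51% of all genes (5.87% together). The members that rose include the type I and III chains, all 3 main type VI chains, Col5a2, Col12a1, Col4a1, Col8a2, Col13a1, Col17a1 and Col28a1, and Col18a1 was the only one called lower. Col1a1 changed by 2.21 ± 0.36 (adjusted p = 0.00255), Col1a2 by 1.79 ± 0.19 (adjusted p = 0.000125) and Col3a1 by 2.44 ± 0.21 (adjusted p = 2.31e-05). Col5a2 changed by 2.74 ± 0.33 (adjusted p = 0.000282) and Col12a1 by 5.21 ± 0.89 (adjusted p = 0.00343). The type VI chains changed by 2.10 ± 0.24 for Col6a1 (adjusted p = 0.000188), 1.94 ± 0.29 for Col6a2 (adjusted p = 0.00133) and 3.02 ± 0.39 for Col6a3 (adjusted p = 0.00049). Among network chains Col4a1 changed by 1.29 ± 0.23 (adjusted p = 0.0045), and Col4a2 differed by a like 1.29 ± 0.38 without being called (adjusted p = 0.0717). Genes with next to no counts in vascular SMC-like cells had the widest fitted changes, which rest on 7 counts of Col28a1, 18 of Col13a1, 4 of Col17a1 and 10 of Col8a2 there. Col28a1 changed by 10.84 ± 1.55 (adjusted p = 0.000989), Col13a1 by 10.56 ± 2.16 (adjusted p = 0.0108), Col17a1 by 8.65 ± 2.10 (adjusted p = 0.0357) and Col8a2 by 7.84 ± 1.90 (adjusted p = 0.0275). Col18a1 changed by -2.82 ± 0.76 (adjusted p = 0.0476). Col14a1 (1.93 ± 0.87, adjusted p = 0.33), Col5a1 (2.01 ± 0.9998, adjusted p = 0.42) and Col4a5 (0.68 ± 0.88, adjusted p = 0.987) were not called. The members' median was 1.94 and that of all genes -0.07. The count was 8 without female mouse 1, 7 without male mouse 1 and 11 without male mouse 2, where 1.62%, 1.92% and 2.62% of all genes were called. Col18a1, Col8a2 and Col17a1 were lost in each of the 3 fits. Col1a2, Col3a1, Col5a2, Col6a1, Col6a3 and Col28a1 were called in all 3. Adventitial fibroblast markers summed to 1956, 2419 and 1959 CPM in alveolar fibroblast-like and 59.5, 186.5 and 147.2 CPM in vascular SMC-like cells; their part in the result was not tested.

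**Figure D5:**
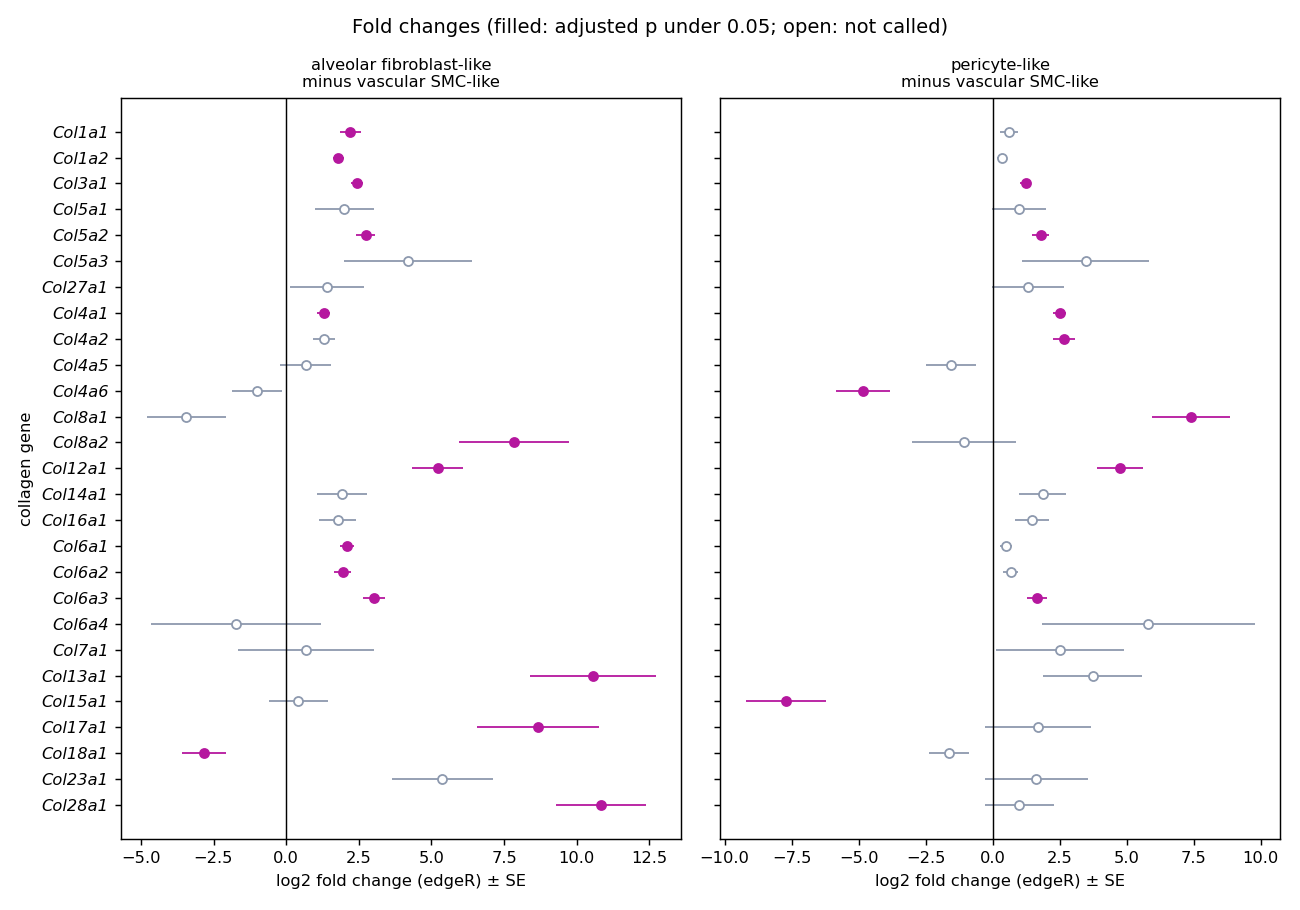
edgeR log2 fold changes (points, bars ± SE) of the 27 collagens with at least 20 CPM, for alveolar fibroblast-like minus vascular SMC-like (left) and pericyte-like minus vascular SMC-like cells (right). Filled points passed an adjusted p of 0.05: 14 on the left and 9 on the right, and the 2 comparisons share the vascular SMC-like sums.

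Alveolar myofibroblast-like against alveolar fibroblast-like cells compared the 2 classes with the largest mean collagen shares among the 5 fitted classes. No member was called higher and 3 were lower in alveolar myofibroblast-like cells, against 1.01% and 1.26% of all genes (2.27% together). Col28a1 changed by -9.27 ± 1.49 (SE), adjusted p = 0.00497, Col4a1 by -1.11 ± 0.23 (SE), adjusted p = 0.0233, and Col1a2 by -0.80 ± 0.19 (SE), adjusted p = 0.0437. Col3a1, although higher in its mean and in all 3 mice, differed by 0.52 ± 0.20 and was not called (adjusted p = 0.279). Also not called were Col1a1 (-0.47 ± 0.35, adjusted p = 0.738), Col6a2 (-0.79 ± 0.28, adjusted p = 0.22) and Col6a1 (-0.86 ± 0.23, adjusted p = 0.0795). The members' median was -1.11 and that of all genes -0.07. No member was called without female mouse 1, male mouse 1 or male mouse 2 (fits that called 0.467%, 0.425% and 0.747% of all genes tested). In the full fit 16 of the 33 tested members had an unadjusted p under 0.05, as did 1938 of all 15992 genes tested. DESeq2 called 8 members and 8.22% of all genes. Adventitial fibroblast markers summed to 3272, 4002 and 1031 CPM in alveolar myofibroblast-like cells, and glial markers to 146.4, 132.1 and 112.2 CPM there and 16.6, 3.91 and 0 CPM in alveolar fibroblast-like cells; their part in the result was not tested.

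Alveolar myofibroblast-like against airway SMC-like cells differed in 1 member, Col3a1, which was higher by 1.57 ± 0.20 (SE), adjusted p = 0.00375, against 0.413% of all genes called higher and 0.5% lower (0.913% together). The class values of Col3a1 were higher in 3 of 3 mice. Col1a1 differed by 1.64 ± 0.36 (adjusted p = 0.0559) and Col1a2 by 0.71 ± 0.19 (adjusted p = 0.111), and neither was called. Col6a1 (0.52 ± 0.23, adjusted p = 0.391) and Col6a2 (0.44 ± 0.28, adjusted p = 0.592) were not called either. Col3a1 was called without female mouse 1 (0.193% of all genes called), and not without male mouse 1 (0.0375%) or male mouse 2 (0.0607%). The members' median was 0.37 and that of all genes 0.05. The alveolar myofibroblast list itself summed to 5622, 4843 and 4835 CPM in airway SMC-like cells and 10649, 15094 and 9055 CPM in alveolar myofibroblast-like cells. The airway SMC list summed to 7196, 9138 and 6974 CPM in airway SMC-like and 6220, 7644 and 7050 CPM in alveolar myofibroblast-like cells.

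Within classes, the clusters differed in their collagens. The pericyte-like class joined clusters 11 and 12, with 16, 4 and 28 cells and 4, 7 and 29 cells, whose values carry no test and are given without TMM scaling. Col6a3 stood at 529.9, 1023 and 1090.3 CPM in cluster 11 and 0, 17.6 and 120.5 CPM in cluster 12. Col18a1 stood at 631.01, 111.6 and 948 CPM in cluster 11 and 5.79, 3.53 and 86.2 CPM in cluster 12, and Col14a1 at 353.01, 458.4 and 310.8 CPM in cluster 11 and 33.8, 0 and 8.72 CPM in cluster 12. Col8a1 was present in both, at 779.9, 607.1 and 1288 CPM in cluster 11 and 101.3, 491.3 and 394.5 CPM in cluster 12. Col4a1 was too, at 724, 2209.8 and 1927 CPM in cluster 11 and 1314, 1842 and 3353 CPM in cluster 12. Col7a1 came almost wholly from cluster 12, at 142.8, 0 and 254.97 CPM. Among the vascular clusters, cluster 3 had Col15a1 at 37.6, 52.03 and 457.3 CPM against 10.02, 13.7 and 114.7 CPM in cluster 0, and cluster 7, which held no cell of female mouse 1, had Col18a1 at 433.7 and 488.7 CPM in the 2 male mice against 849, 1074 and 1775 CPM in cluster 0.

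From cell to cell, the type I chains varied together most closely in alveolar fibroblast-like cells. Pearson's r of log-scaled values within a mouse was 0.69 to 0.88 for Col1a1 and Col1a2 there, and 0.22 to 0.59 in vascular SMC-like cells. For Col6a1 and Col6a2 it was 0.49 to 0.80 in alveolar fibroblast-like and 0.21 to 0.34 in vascular SMC-like cells. For Col1a1 and Col4a1, which build different structures, it was 0.46 to 0.52 and 0.06 to 0.15 in these classes. In pericyte-like cells, Col4a1 and Col4a2 had an r of 0.30 to 0.47, and Col1a1 and Col4a1 one of -0.02 to 0.57. Col4a1 and Col4a2 had an r of 0.27 to 0.50 in airway SMC-like and 0.24 to 0.43 in alveolar fibroblast-like cells. For this pair it was 0.06 to 0.37 in vascular SMC-like and -0.04 to 0.45 in alveolar myofibroblast-like cells. Cells of a class and mouse share a plate and differ in depth, so these are descriptions.

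Female mouse 1 had the highest value of most members: 15 of 17 in vascular SMC-like, 17 of 18 in airway SMC-like, 15 of 19 in pericyte-like, 15 of 19 in alveolar myofibroblast-like and 23 of 24 in alveolar fibroblast-like cells, counting members with at least 20 CPM there. Its median ratio to the mean of the male mice was 2.28, 3.64, 2.004, 2.15 and 2.07 in those classes, against 0.89 to 1.04 for all genes of that level, of which 31.9% to 44.9% were highest in this mouse. The exceptions include Col14a1 in alveolar myofibroblast-like and pericyte-like cells and Col12a1 in pericyte-like cells. The cells of male mouse 1 lay on 2 plates. Among members with a mean of at least 20 CPM over both, the plates differed by less than 2-fold for 16 of 16 in vascular SMC-like and 21 of 22 in alveolar fibroblast-like cells, but for 13 of 17 in airway SMC-like, 9 of 14 in alveolar myofibroblast-like and 7 of 19 in pericyte-like cells, where the plates hold 7 and 13 cells. Pericyte-like Col6a2, for one, stood at 1421 CPM on one plate and 415.4 on the other, and Col15a1, under that level in vascular SMC-like cells, stood there at 22.7 and 4.17 CPM. The block for the mouse in the fit removes a shift that all classes of a mouse share.

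A count in a cell is not by itself evidence of expression for the abundant members. After thinning, Col1a1 was found in 90.3% of vascular SMC-like cells, but also in 89.4% of endothelial-like and 58.2% of macrophage-like cells (median depths 216362, 151322 and 242130 counts per cell). Its pooled levels there, without TMM scaling, were 712, 78.5 and 138.6 CPM. The pooled macrophage-like level does not describe most of these cells. All fibrillar genes together took 0.00845% of counts in the 60 macrophage-like cells of male mouse 1. They took 0.331% in the 6 cells of the other male mouse and 1.13% in the 1 cell of female mouse 1. The exact intervals treat the pooled cells of a class as independent and cover only the error of counting cells. They leave out the spread between mice. PCR reads without molecular identifiers are also not independent molecules.

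Genes that make and process collagen were fixed as a list of 34, of which 33 were tested. A difference among classes was called for 11 of them, against 11.6% of all genes. Pcolce and Pcolce2, which speed removal of the propeptide, rose in alveolar fibroblast-like against vascular SMC-like cells by 3.08 ± 0.33 (adjusted p = 0.000122) and 3.50 ± 0.39 (adjusted p = 0.000168). Pcolce stood at 958, 1111 and 1334 CPM in alveolar fibroblast-like and 94.5, 114.2 and 215.5 CPM in vascular SMC-like cells. In the same comparison Adamts2, the propeptidase, Serpinh1, the collagen chaperone HSP47, the prolyl hydroxylase chains P4ha1 and P4ha3, the galactosyltransferase Colgalt2 and Sparc, a collagen-binding protein, also rose, which made 8 higher and none lower, against 3.36% and 2.51% of all genes. P4ha3 was also higher in airway SMC-like than vascular SMC-like cells, at 65.9, 58.2 and 251.7 against 2.94, 0.607 and 0.73 CPM (6.36 ± 0.79, adjusted p = 0.00103), with P3h2 and Colgalt2 the other two called there (1.04% of all genes were higher). Pericyte-like cells had P3h2, P4ha1, Pcolce and Sparc higher and Loxl1, a lysyl oxidase, and P4ha2 lower than vascular SMC-like cells, against 1.93% of all genes higher and 2.3% lower. P3h2, a prolyl 3-hydroxylase that acts on type IV collagen, stood at 78.4, 272.1 and 42.6 CPM in pericyte-like and 3.50, 0.693 and 0.95 CPM in vascular SMC-like cells (6.04 ± 1.09, adjusted p = 0.00716). Alveolar myofibroblast-like cells had P3h2 higher and Adamts2, Pcolce and Sparc lower than alveolar fibroblast-like cells, against 1.01% of all genes higher and 1.26% lower. They had Adamts2, P4hb and Pcolce2 higher than airway SMC-like cells, where 0.413% of all genes were higher. Of 10 collagen receptors, 7 were tested, and only Itga1 (-3.46 ± 0.60, adjusted p = 0.00409) and Itgb1 (-1.14 ± 0.19, adjusted p = 0.00341), which pair as a collagen receptor, were called, both lower in alveolar fibroblast-like than vascular SMC-like cells, as were 2.51% of all genes. In the other 4 comparisons no receptor was called. Their order here is airway SMC-like and pericyte-like against vascular SMC-like, then alveolar myofibroblast-like against alveolar fibroblast-like and airway SMC-like cells. At an unadjusted p under 0.05 were 1, 3, 0 and 3 of the 7 receptors, and 1751, 2749, 1938 and 1917 of all 15992 genes tested.

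The rarely counted members complete the family. The 11 that did not pass the filter on low counts were Col2a1, Col6a5, Col9a1, Col9a2, Col9a3, Col10a1, Col11a1, Col11a2, Col19a1, Col25a1 and Col26a1, each with counts in 2 to 65 of the 1376 cells and a highest class mean of at most 5.21 CPM. The 6 tested members below 20 CPM were Col4a3, Col4a4, Col6a6, Col20a1, Col22a1 and Col24a1, and edgeR called none of them in any comparison over the 5 classes. Fitted on the 2 compared classes alone, it called Col24a1 and Col6a6 in alveolar fibroblast-like against vascular SMC-like cells. DESeq2 called both genes among the classes and between the pericyte-like and vascular SMC-like classes, and of these genes Col24a1 alone between the alveolar fibroblast-like and vascular SMC-like classes. Single cells carried several of these values: in airway SMC-like cells, 91.6% of the Col4a3 counts came from 1 cell.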

How the data were processed

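The deposited values are raw counts per gene and cell, made by the authors. Bowtie, Bowtie2, Subread, featureCounts and bcl2fastq are named in the submitters' processing notes, with builds GRCm38 and mm10; strand use and duplicate handling are not stated there. Symbols and coordinates came from GENCODE M21 (GRCm38), which named 46005 of 46517 genes. Members and lists were chosen with earlier results of these data known. Cells were clustered without collagens (Leiden, resolution 1, 30 components) on 1 of 2 random parts of the other genes; collagens took classes from the first part, and every other gene from the part without it. Classes were named from marker lists by a rule set after the clusters were seen, and 916 of 933 cells named in both clusterings had the same name. No doublet caller was run. Sums per class and mouse were tested with edgeR 4.0.16 (quasi-likelihood, TMM, filterByExpr; terms class and mouse, the pairing given by the labels), with Benjamini-Hochberg adjustment over 15992 genes; SE is the fold change over the root of F. Levels are TMM-scaled CPM; members with at least 20 CPM in some class are given by mouse, and each comparison names all called members and up to 4 others. Code was tested on simulated data. DESeq2 1.42.0, other scalings, filters, clusterings and left-out mice were alternatives.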

Additional observations from a re-analysis of the deposited data

Results flagged for a closer look

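Cells outside the 5 compared classes held signals of some collagens above the highest of those classes; all values are pooled CPM without TMM scaling, so the mice are not weighted equally. In the 17 adventitial fibroblast-like cells, 14 of them from female mouse 1, Col1a2 stood at 6943 CPM against 3426 in alveolar fibroblast-like cells. Col14a1 stood at 1819 CPM there against 349.3 in alveolar myofibroblast-like cells, and Col15a1 at 279.5 CPM against 63.5 in alveolar fibroblast-like cells. Col4a4 stood at 29.1 CPM in the adventitial cells, with 68.7% of its counts from 1 cell.

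The 76 cells of unnamed cluster 8 (29, 17 and 30 per mouse), led by Bmp7, Adh7 and Dner, held Col23a1 at 222.4 CPM against 70.05 in alveolar fibroblast-like cells. Col17a1 stood at 58.2 CPM there against 20.7, and Col15a1 at 147.9 CPM. By mouse, Col23a1 stood at 399.96, 108.7 and 117.1 CPM and Col17a1 at 129.6, 27.2 and 10.7 CPM in that cluster.

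Other values rested on 1 cell each: Col4a3 at 28.5 CPM in the 90 cells of unnamed cluster 5 (90.8% of the counts from 1 cell), Col6a6 at 24.1 CPM in the same cluster (99.7%) and Col20a1 at 25.2 CPM in unnamed cluster 1 (80.1%).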

How the results depend on the processing

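No called member changed direction in any alternative that was run. The replicate block pairs the classes by mouse; with no replicate block, 2 members instead of 4 were called for airway against vascular SMC-like cells, 4 instead of 9 for pericyte-like cells, 1 instead of 3 for alveolar myofibroblast-like against alveolar fibroblast-like cells, 8 instead of 14 for alveolar fibroblast-like against vascular SMC-like cells, 0 instead of 1 for alveolar myofibroblast-like against airway SMC-like cells, and 13 instead of 18 among classes. With no block, 1.33%, 3.13%, 1.67%, 4.71%, 0.544% and 10.8% of all genes were called, against 1.91%, 4.23%, 2.27%, 5.87%, 0.913% and 11.6% with it. With 1 mouse left out, the counts ranged from 0 to 2, 2 to 5, 0 to 0, 7 to 11, 0 to 1 and 10 to 13 for these comparisons. The shares of all genes ranged from 0.305% to 0.747%, 0.919% to 1.34%, 0.425% to 0.747%, 1.62% to 2.62%, 0.0375% to 0.193% and 3.81% to 4.82%. With only the 2 compared classes in the fit, the counts were 3, 5, 5, 21 and 0, and the shares of all genes 1.45%, 2.15%, 2.08%, 11.6% and 0.0566%. DESeq2 called 8 members for alveolar myofibroblast-like against alveolar fibroblast-like cells and 4 for alveolar myofibroblast-like against airway SMC-like cells, but also 8.22% and 7.49% of all genes. RLE factors and no low-count filter each called 2 in the latter (0.925% and 0.546% of all genes). Cells scaled to the same total gave 5 in the former (2.29% of all genes). The causes were not tested. The uncalled Col1a1 difference between airway and vascular SMC-like cells (0.10) turned to -0.0207 at Leiden resolution 2, -0.0237 without the filter, -0.0170 with only the 2 classes, -0.211 without female mouse 1 and -0.168 without male mouse 1. Of the 27 members, 26 kept their highest class without TMM and as means over cells, and 25 with the other clustering. The stricter cell filter and the clustering on both gene parts left under 10 pericyte-like cells in a mouse and were not run for that class. Classes of 11 or 12 cells in male mouse 2 limit the depth of the pericyte-like and airway SMC-like sums.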
